A study of Homo sapiens with 6 samples.

Results

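The 34 genes described here encode 13 collagen chains outside type VI and outside the cartilage types, and the enzymes, chaperones and propeptidases that turn such chains into secreted, cross-linked matrix. They were taken by symbol from a fixed list, and all 34 were found among the 28395 Entrez gene IDs of the deposited count table. The list was chosen with earlier results of these data known, so its shares beside all genes are description, not a test. The cells were TC28a2, an immortalised human chondrocyte line, harvested 48 hours after transfection. The ZEB1 group received a ZEB1 overexpression vector and the control group a control vector, with 3 libraries each. ZEB1 is a zinc finger transcription factor best known as a repressor in epithelial to mesenchymal transition. The vector's promoter and the share of cells that took it up are not stated in the labels. All libraries come from 1 cell line, and the labels do not say whether replicates were separate cultures, so every p-value reflects library-to-library spread that may be technical.

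Collagen chains are made in the endoplasmic reticulum, where prolyl and lysyl residues are hydroxylated and some hydroxylysines are glycosylated before the triple helix folds. Chaperones hold the folding helix, propeptidases trim fibrillar procollagen outside the cell, and lysyl oxidases start the covalent cross-links between molecules. Fibrillar chains give tensile strength, type IV chains form the sheet of basement membranes, and other chains anchor, link or decorate these structures. Cartilage is built mainly on type II collagen, and a shift toward type I is a familiar sign of chondrocytes that lose their phenotype in culture.

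Libraries were made by DRUG-seq, a multiplexed RNA-seq method. The ZEB1 libraries held 1277632, 1621270 and 3316228 counts in replicates 1, 2 and 3, and the control libraries held 5359200 to 5878640. ZEB1 itself had 12267, 14047 and 6894 CPM (counts relative to the TMM-scaled library size) in ZEB1 replicates 1, 2 and 3, against 20.8 to 32.6 CPM in the controls. On the log2 scale ZEB1 was 8.79 higher (SE 0.31, edgeR adjusted p = 2.37e-13). Vector and endogenous transcripts cannot be told apart in these counts. Of 16 chondrocyte markers, SOX9 alone had enough counts to be tested, with 78.2, 61.1 and 65.5 CPM in the ZEB1 libraries against 54.2, 64.9 and 82.9 CPM in the controls, and COL9A1 and CHAD had 0 counts in every library. COL2A1 had 0 counts in each ZEB1 library against 3, 0 and 8 in the controls, and ACAN had 0 in each against 7, 0 and 6. The defining cartilage chains were thus at or near 0 in both groups. Summed levels of the markers of other cell types overlapped between the groups. The 10 leukocyte markers summed to 176 to 259 CPM in ZEB1 libraries and 181 to 204 CPM in controls, with CD3E at 0 in every library and SRGN, also made outside leukocytes, holding most of the sum. The 8 endothelial markers summed to 64.9 to 103 CPM in ZEB1 libraries and 78.9 to 91.9 CPM in controls, mostly from EGFL7 and ENG. PECAM1 among them had 4, 12 and 22 counts in the ZEB1 libraries against 9, 6 and 11 in the controls. After scaling, every ZEB1 library lay above every control (edgeR adjusted p = 0.462), but only the ZEB1 group gave PECAM1 enough counts to be tested. For the leukocyte marker LAPTM5 every ZEB1 library lay below every control (edgeR adjusted p = 0.566). The 9 epithelial markers summed to 878 to 1020 CPM in ZEB1 libraries and 931 to 1030 CPM in controls, nearly all from KRT8 and KRT18. The part of such cells in the results below was not tested. In bulk RNA, fewer cells of a kind and less RNA per cell cannot be told apart.

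No member passed an edgeR adjusted p of 0.05 over all 11329 genes tested, a threshold that 0.00883% of those genes, ZEB1 alone, passed. Most members nevertheless lay somewhat lower with the ZEB1 vector. Of the 31 members with enough counts to be tested, 25 (80.6%) had a log2 fold change below 0, against 51.5% of all tested genes, and their median was -0.18 against -0.01 for all tested genes. COL8A1 passed the filter on low counts only through the controls, and without it 24 of 30 lay below 0 with a median of -0.165. At an unadjusted edgeR p under 0.05 there were 4 members, all lower: the chains COL1A1, COL4A1 and COL7A1 and the prolyl hydroxylase subunit P4HA2. That is 12.9% of the tested members, where 3.57% of all tested genes were lower at this p and 5.83% were higher. Scaling by library size alone put the median over all genes at -0.14, and 64.2% of all tested genes then lay below 0. The shares at unadjusted p were 7.12% lower and 3.06% higher, and 9 members passed, all lower.

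In 9 tested members (29%) every ZEB1 library lay below every control, against 8.16% of all tested genes. These were COL1A1, COL4A1, COL4A2, COL7A1, COL8A1, P4HA1, P4HA2, P3H3 and SPARC. Without COL8A1 the count was 8 of 30. In 1 tested member, COL16A1 (3.23%), every ZEB1 library lay above every control, against 6.96% of all tested genes. Other tools gave the same count of 0 members past an adjusted p of 0.05, although they called more genes elsewhere. DESeq2 called 6.68% of the 2544 genes it adjusted over, limma-voom called 0.512% of all tested genes, and its version with quality weights called 1.36%. At an unadjusted p under 0.05 DESeq2 gave 4 members, where 2.97% of all genes were lower and 6.56% higher. Limma-voom gave 5, where 2.96% were lower and 5.83% higher, and with quality weights it gave 8, where 3.35% were lower and 6.33% higher. All of these members were lower. DESeq2 gave no adjusted p for the members of lower mean count, so its count of 0 covers only the others. Those left out include P4HA2, P3H3, COL5A1, SERPINH1 and P3H1, the last with a mean count of 273. P4HA2 had an unadjusted DESeq2 p of 0.0143. The smallest adjusted p that DESeq2 gave a member was 0.0571, for COL7A1. Without ZEB1 replicate 3 edgeR called 3.38% of genes and 1 member, PLOD3, and 10 members, all lower, had an unadjusted p under 0.05, where 9.41% of all genes were lower at this p. Without control replicate 1 that count was 2, against 1.74% of all genes.

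**Figure D1:**
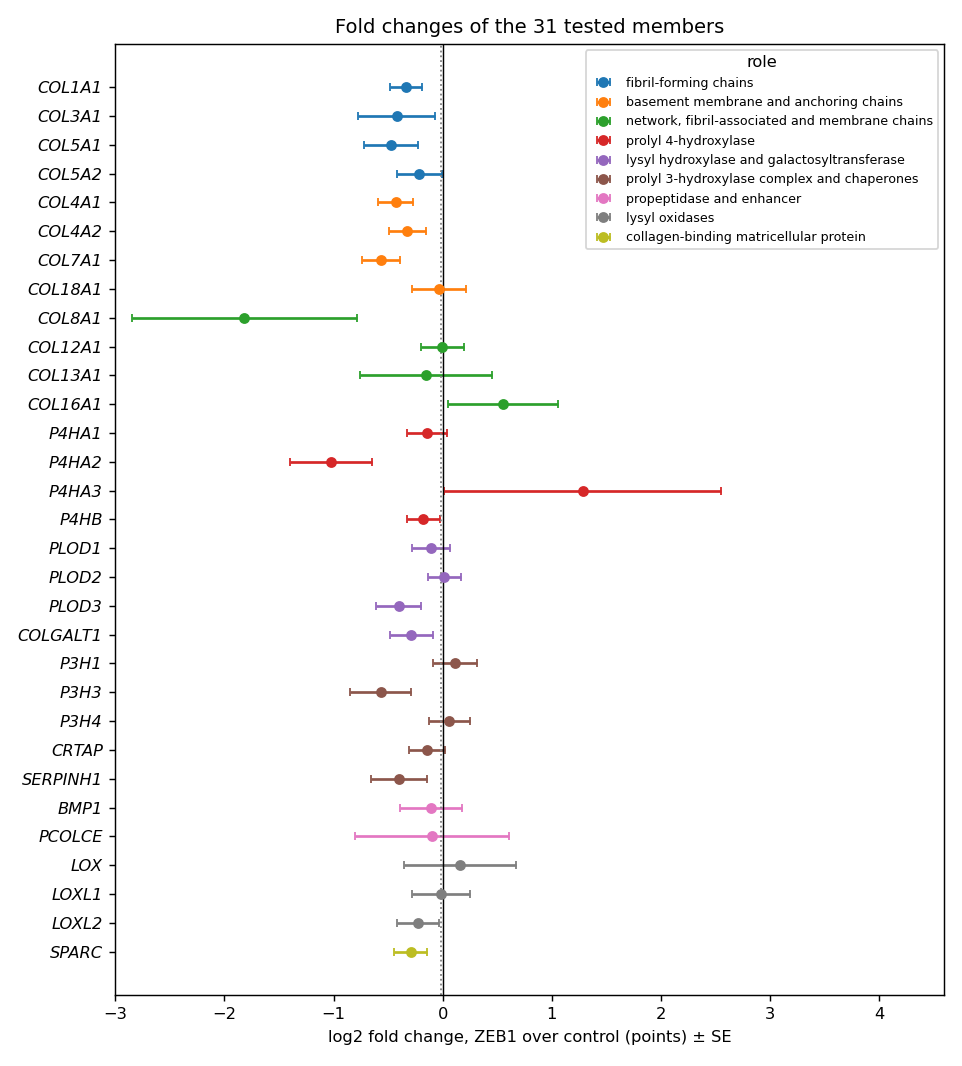
Log2 fold change of ZEB1 over control libraries (points) with its standard error (bars) for the 31 tested members, coloured by role, 3 libraries per group. The dotted line is the median of all tested genes, -0.01, and 25 of the 31 points lie below 0.

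The shift differed between ZEB1 libraries. The mean log2 CPM of the 30 tested members other than COL8A1, each relative to its control mean, was -0.56, -0.18 and -0.001 in ZEB1 replicates 1, 2 and 3, and 0.09, 0.002 and -0.09 in control replicates 1, 2 and 3. On this mean replicates 1 and 2 were lower than every control, while replicate 3 sat among the controls. The mean includes P4HA3 and PCOLCE, which had 0 counts each in ZEB1 replicate 1 and 12 and 54 in replicate 3. In CPM, replicate 3 was the highest of the 6 libraries for both genes. A mean without P4HA3 and PCOLCE was not computed, so where replicate 3 stands without them is not known. With COL8A1 the ZEB1 values were -0.64, -0.28 and -0.02. Over all tested genes the same mean was -0.20, -0.10 and -0.04 in the ZEB1 libraries and -0.01 to 0.01 in the controls. Replicates 1 and 2 were both the shallower libraries and those with more ZEB1, so the effects of depth and of the amount of ZEB1 cannot be told apart. Without ZEB1 replicate 1 the median log2 fold change of the members was -0.06, and without ZEB1 replicate 3 it was -0.29. Replicate 3 alone against the 3 controls gave -0.01, with 17 members below 0 and 15 above.

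The collagen chains and the other members are given apart, and COL8A1 is left out of the chains because only its level in the controls let it pass the filter. The 11 remaining tested chains had a median log2 fold change of -0.32 with 10 below 0, and the 19 other members had -0.14 with 14 below 0. Chain means relative to the controls were -0.45, -0.12 and -0.17 in ZEB1 replicates 1, 2 and 3, and 0.07, -0.06 and -0.01 in the controls. All 3 ZEB1 libraries lay below all controls, replicate 2 by a narrow margin and close to the -0.10 of all tested genes in that library, and with COL8A1 the ZEB1 values were -0.68, -0.38 and -0.20. The other members stood at -0.62, -0.21 and 0.10 in the ZEB1 libraries and at 0.10, 0.04 and -0.14 in the controls, so that these groups overlapped. These means include P4HA3 and PCOLCE, which have few counts. Both had 0 counts in ZEB1 replicate 1 and their highest CPM of all 6 libraries in replicate 3. Means of the other members without P4HA3 and PCOLCE were not computed, although COL8A1 was left out of the chains. With replicate 3 alone the median was -0.19 for chains other than COL8A1 and 0.03 for the other members. Without ZEB1 replicate 1 it was -0.10 for chains other than COL8A1 and -0.04 for the other members. Whether chains and processing genes differ was not tested. Summed over all 13 chains, the level was 950, 1192 and 1165 CPM in the ZEB1 libraries and 1482, 1340 and 1323 CPM in the controls.

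**Figure D2:**
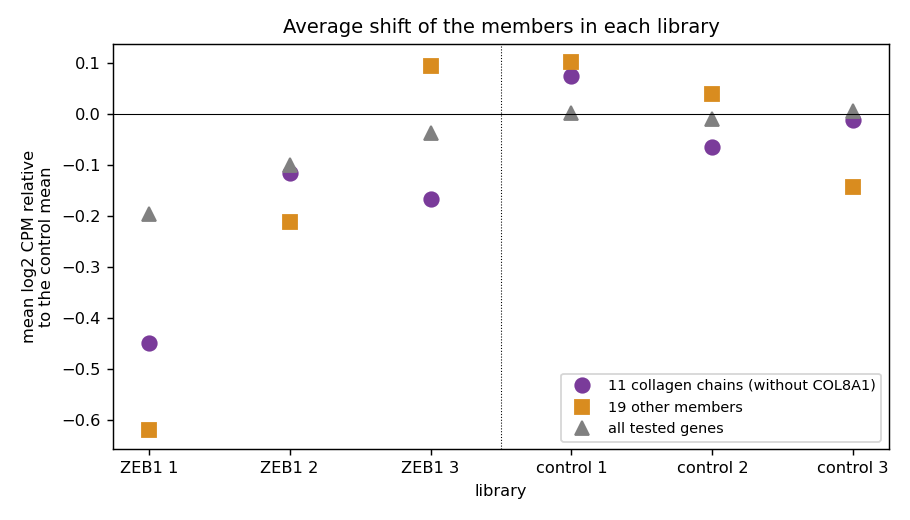
Mean log2 CPM relative to the control mean (vertical axis) in each of the 6 libraries (horizontal axis), for the 11 tested collagen chains without COL8A1 (circles), the 19 other tested members (squares) and all tested genes (triangles). Chains lie below the controls in all 3 ZEB1 libraries, at -0.45, -0.12 and -0.17, while the other members reach 0.10 in ZEB1 replicate 3. That last value includes P4HA3 and PCOLCE, members with few counts that were highest in that library.

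Among fibril-forming chains, all 4 tested members had a fold change below 0, and their median was -0.38. COL1A1 (Entrez 1277, chromosome 17, 50184101 to 50201631, GRCh38.p14), the main chain of type I collagen, had 263, 256 and 233 CPM in the ZEB1 libraries against 338, 323 and 284 CPM in the controls. Every ZEB1 library lay below every control, and replicate 3 was the lowest of all 6. The log2 fold change was -0.33 (SE 0.15; edgeR adjusted p = 0.485.) It kept to -0.40 to -0.29 on leaving out single libraries and was -0.47 with library size alone.

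COL1A2, which encodes the partner chain in the usual type I heterotrimer, had 0, 6 and 10 counts in the ZEB1 libraries against 5, 2 and 5 in the controls and was not tested. Per kilobase of the longest GENCODE coding transcript, COL1A1 stood at 34.7 to 39.1 CPM in ZEB1 libraries and 42.3 to 50.2 CPM in controls. On that scale COL1A2 stood at 0 to 0.713 CPM in ZEB1 libraries and 0.0675 to 0.151 CPM in controls. With or without this division, the level of COL1A2 was far below that of COL1A1 in every library. Whether DRUG-seq counts scale with transcript length was not tested. A floor of 3 counts corresponds to 2.67, 1.93 and 0.894 CPM in ZEB1 replicates 1, 2 and 3 and to 0.481 to 0.547 CPM in the controls.

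The minor fibrillar chains were fewer. COL3A1, the chain of type III collagen, had 13.3, 16.7 and 17.9 CPM in the ZEB1 libraries against 15.7, 26.3 and 23.2 CPM in the controls, with overlap and a log2 fold change of -0.42 (SE 0.35). COL5A1, a type V chain that limits fibril diameter, had 48.9, 31.5 and 30.4 CPM in the ZEB1 libraries against 52.1, 46.7 and 51.4 CPM in the controls. Replicate 1 lay within the control range and replicates 2 and 3 below it, and the log2 fold change was -0.47 (SE 0.25). COL5A2, its partner, had 56.9, 73.3 and 103 CPM in the ZEB1 libraries against 91.9, 92.8 and 91.1 CPM in the controls. Its replicate 3 was the highest of the 6 libraries, the reverse of COL5A1.

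Basement membrane and anchoring chains were 4, all tested and all with a fold change below 0 (median -0.38). COL4A1 and COL4A2 encode the chains of the common type IV network and are arranged head to head on chromosome 13 (GRCh38.p14), with COL4A1 at 110148963 to 110307157 and COL4A2 at 110307284 to 110513209. Their annotated starts lie 127 bases apart on opposite strands. The stretch between them is shown because the pair is transcribed outward from it, so that 1 sequence lies upstream of both chains. It spans chr13:110307158-110307283 on the plus strand, from RefSeq, with a CCAAT box and a GC box in capitals.

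COL4A1-COL4A2 between starts: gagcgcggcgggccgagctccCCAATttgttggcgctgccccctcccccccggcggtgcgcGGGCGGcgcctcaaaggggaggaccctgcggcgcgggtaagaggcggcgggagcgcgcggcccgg

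COL4A1 had 181, 232 and 253 CPM in the ZEB1 libraries against 345, 285 and 272 CPM in the controls. COL4A2 had 148, 234 and 243 CPM in the ZEB1 libraries against 263, 264 and 261 CPM in the controls. In both chains every ZEB1 library lay below every control, and replicate 1 was the lowest. COL4A1 differed by -0.43 on the log2 scale (SE 0.16, edgeR adjusted p = 0.373) and COL4A2 by -0.32 (SE 0.17, edgeR adjusted p = 0.595). Without ZEB1 replicate 1 the values were -0.31 for COL4A1 and -0.14 for COL4A2, and replicate 3 alone gave -0.26 and -0.12. Antisense genes overlap COL4A2 in the annotation. The ratio of COL4A1 to COL4A2 counts within a library was 1.22, 0.992 and 1.04 in the ZEB1 libraries and 1.31, 1.08 and 1.04 in the controls, so the ranges overlapped.

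COL7A1 (Entrez 1294, chromosome 3, 48564073 to 48595329) encodes the chain of the anchoring fibrils that tie basement membrane to the tissue beneath. It was the member with the smallest p. It had 81.8, 102 and 101 CPM in the ZEB1 libraries against 161, 124 and 140 CPM in the controls, averaging 95.1 ± 11.6 CPM and 142 ± 18.7 CPM (SD, n = 3 each). The groups did not overlap, and the ZEB1 libraries lay close together. The log2 fold change was -0.57 (SE 0.17; edgeR adjusted p = 0.251), and it was -0.66 to -0.48 on leaving out single libraries. Replicate 3 alone against the controls gave -0.49. The 250 bases before its RefSeq start, chr3:48595330-48595579 on the minus strand, are shown for this reason, with the 3 GC boxes it holds in capitals.

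COL7A1 upstream: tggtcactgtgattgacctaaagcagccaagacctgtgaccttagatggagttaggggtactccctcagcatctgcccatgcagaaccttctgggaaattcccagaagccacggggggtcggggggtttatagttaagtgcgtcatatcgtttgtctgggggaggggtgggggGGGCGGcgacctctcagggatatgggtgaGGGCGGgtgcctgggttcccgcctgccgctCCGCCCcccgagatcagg

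COL18A1, whose product carries heparan sulfate and yields endostatin, had 44.4, 120 and 87.3 CPM in the ZEB1 libraries against 97.8, 88.4 and 75.1 CPM in the controls. Replicate 1 was the lowest and replicate 2 the highest of all 6 libraries. The log2 fold change was -0.04 (SE 0.25), and the gene overlaps SLC19A1 in the annotation.

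ZEB1 is known to bind E-boxes of the form CACCTG, which reads CAGGTG on the other strand. RefSeq promoter windows of 300 bases, 250 before and 50 after a start, were at hand for 25 members in 31 windows. An E-box on either strand occurred in 7 of these windows, against 20.6% of all 35116 windows. The members with one were COL16A1, COLGALT1, LOX, LOXL3, LOXL4 and SERPINH1, which is 6 of 25, where 24.6% of the 18304 table genes with a window hold one, so the share of members is near the background. COL4A1, COL4A2, COL7A1 and P4HA2 had none in their windows, which says only that these letters are absent there. GC boxes, GGGCGG or CCGCCC, occurred in 19 of the 25 members against 60.1% of those genes. CCAAT boxes, CCAAT or ATTGG, occurred in 7 of the 25 against 41.3%. In the sequences shown, no match shared letters with another. Sites of 3 members, chosen after their values were seen, are shown as 30 bases with only the E-box in capitals, each on the strand of its gene, for COL16A1 at chr1:31704221-31704250 (minus), COLGALT1 at chr19:17555524-17555553 (plus) and SERPINH1 at chr11:75562305-75562334 (plus).

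COL16A1 E-box site: tcgaggatcgctCACCTGgcggtgaggcag
COLGALT1 E-box site: tgggtagggctgCAGGTGacgtcactccgg
SERPINH1 E-box site: cccagcccgaccCAGGTGaggggcgggaga

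The fold change on the log2 scale was 0.55 (SE 0.50) for COL16A1, -0.29 (SE 0.20) for COLGALT1 and -0.40 (SE 0.25) for SERPINH1. Among the other members with the motif, LOX had 0.16 (SE 0.52), and LOXL3 and LOXL4 had too few counts to be tested. Whether the motif goes with the direction of change was not tested.

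Among network, fibril-associated and membrane chains the values went both ways. COL12A1, a chain that decorates type I fibrils, had 96.9, 105 and 73.9 CPM in the ZEB1 libraries against 95.9, 73.5 and 104 CPM in the controls, a log2 fold change of -0.003 (SE 0.20), and the groups overlapped. COL16A1, another fibril-associated chain, had 13, 18 and 29 counts in the ZEB1 libraries against 52, 41 and 34 in the controls. After scaling that was 11.6, 11.6 and 8.64 CPM in the ZEB1 libraries against 8.34, 7.47 and 5.55 CPM in the controls, so every ZEB1 library lay above every control. Its log2 fold change was 0.55 (SE 0.50; edgeR adjusted p = 0.805.) COL8A1, a short-chain network collagen of vessels and cornea, had 0, 0 and 9 counts in the ZEB1 libraries against 26, 19 and 33 in the controls, and its log2 fold change was -1.82 (SE 1.03). Without ZEB1 replicate 3, which leaves 0 counts in the ZEB1 group, the fitted value was -7.17 and is no bound, and replicate 3 alone gave -0.70. COL13A1, a transmembrane collagen, had 3.55 to 7.75 CPM in ZEB1 libraries and 4.38 to 8.49 CPM in controls.

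**Figure D3:**
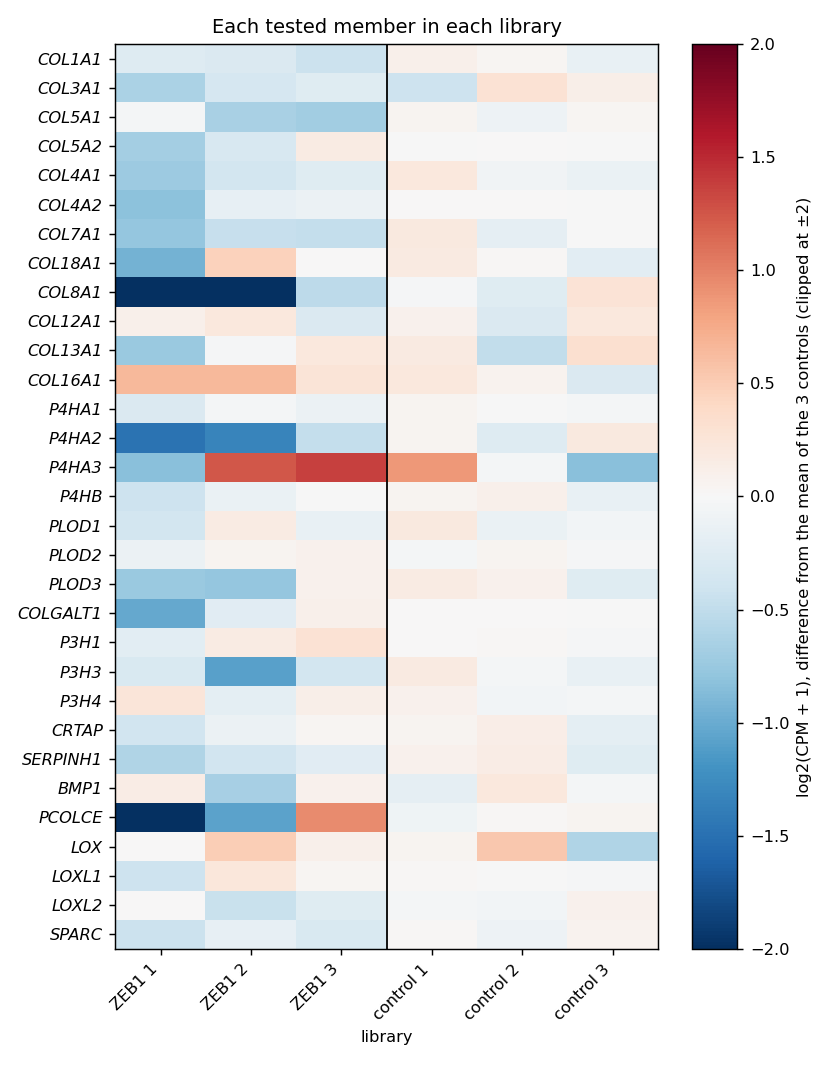
Colour gives the difference of log2(CPM + 1) from the mean of the 3 controls, clipped at ±2, for the 31 tested members (rows) in the 3 ZEB1 and 3 control libraries (columns). The blue cells gather in ZEB1 replicates 1 and 2. Several members lie below the control mean in all 3 ZEB1 libraries, among them COL1A1, COL4A1, COL7A1, P4HA2, P3H3 and SPARC.

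The prolyl 4-hydroxylase subunits act on the repeated triplets of the chains and make the helix stable at body temperature. P4HA2, one of the catalytic subunits, had 9, 14 and 57 counts in the ZEB1 libraries against 156, 110 and 171 in the controls. These corresponded to 7.997, 9.003 and 16.98 CPM in the ZEB1 libraries against 25.02, 20.05 and 27.9 CPM in the controls, with no overlap and with replicate 3 nearest to the controls. The log2 fold change was -1.02 (SE 0.38), the lowest among tested members with at least 2.31 CPM, the filter's cutoff, in all 6 libraries, and the edgeR adjusted p was 0.363. Without ZEB1 replicate 3 it was -1.52, and replicate 3 alone gave -0.53. P4HA2-AS1 overlaps the gene, and the strand setting of the counting is not given, so reads of both cannot be told apart.

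P4HA1, the widely expressed catalytic subunit, had 68.4, 81.7 and 77.5 CPM in the ZEB1 libraries against 87.4, 83.3 and 81.8 CPM in the controls. All ZEB1 libraries lay below the controls by a narrow margin, and the log2 fold change was -0.15 (SE 0.18). P4HB, the protein disulfide isomerase that serves as the other subunit and also folds many non-collagen proteins, had 430, 527 and 571 CPM in the ZEB1 libraries against 599, 616 and 518 CPM in the controls. The groups overlapped, and the log2 fold change was -0.18 (SE 0.15). P4HA3, the remaining catalytic subunit, had 0, 5 and 12 counts in the ZEB1 libraries against 14, 4 and 0 in the controls, a log2 fold change of 1.28 (SE 1.27).

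The lysyl hydroxylases and the galactosyltransferase COLGALT1 modify lysines that later carry sugars or cross-links. COLGALT1 had 129, 226 and 284 CPM in the ZEB1 libraries against 263, 264 and 262 CPM in the controls. Replicate 1 was the lowest of all 6 libraries and replicate 3 lay above every control, and the log2 fold change was -0.29 (SE 0.20). PLOD3, which both hydroxylates and glycosylates lysine, had 96.0, 94.5 and 172 CPM in the ZEB1 libraries against 180, 172 and 136 CPM in the controls. Replicates 1 and 2 lay below the controls and replicate 3 within their range. The log2 fold change was -0.40 (SE 0.21; edgeR adjusted p = 0.582.) Without ZEB1 replicate 3 it was -0.78, with an edgeR adjusted p of 0.0232, and replicate 3 alone gave 0.07. PLOD1 had 110 to 159 CPM in ZEB1 libraries and 131 to 163 CPM in controls. PLOD2, the telopeptide lysyl hydroxylase tied to stiff fibrotic cross-links, had 148, 168 and 170 CPM in the ZEB1 libraries against 157, 167 and 159 CPM in the controls. Its log2 fold change was 0.01 (SE 0.15).

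Of the 5 genes of the prolyl 3-hydroxylase complex and the collagen chaperones, 3 had a fold change below 0 and 2 above. CRTAP and P3H1 act in one complex with the isomerase PPIB. On the log2 scale CRTAP differed by -0.14 (SE 0.16) and P3H1 by 0.11 (SE 0.20). CRTAP had 130, 158 and 174 CPM in the ZEB1 libraries against 177, 186 and 149 CPM in the controls, and the groups overlapped. P3H3 and P3H4 are relatives that work with lysyl hydroxylase 1 in mice. P3H3 had 37, 29 and 105 counts in the ZEB1 libraries against 290, 218 and 225 in the controls, or 32.9, 18.6 and 31.3 CPM in the ZEB1 libraries against 46.5, 39.7 and 36.7 CPM in the controls. The groups did not overlap, and the log2 fold change was -0.57 (SE 0.28; edgeR adjusted p = 0.548.) P3H4 had 97.7, 72.0 and 90.0 CPM in the ZEB1 libraries against 87.7, 80.0 and 80.8 CPM in the controls. SERPINH1 (HSP47), the chaperone specific to procollagen, had 27.5, 32.2 and 36.0 CPM in the ZEB1 libraries against 45.2, 47.0 and 35.7 CPM in the controls. ZEB1 replicate 3 lay just above the lowest control, and the log2 fold change was -0.40 (SE 0.25).

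**Figure D4:**
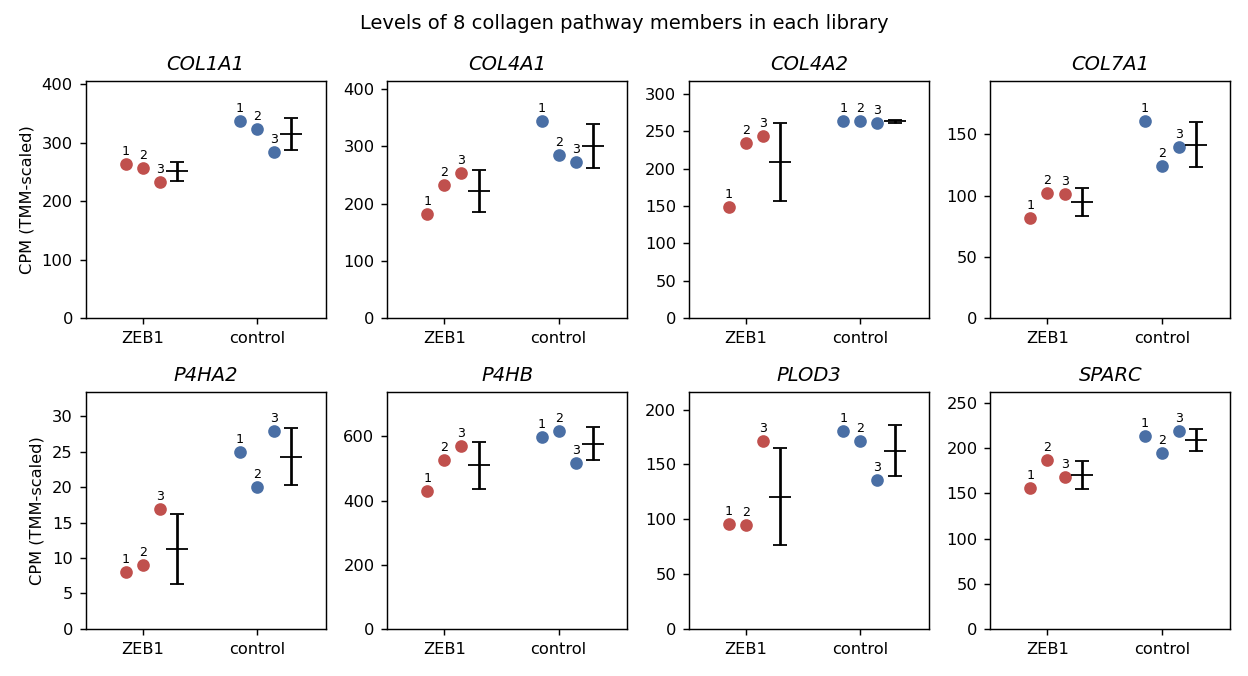
CPM (vertical axes, each from 0, TMM-scaled) of 8 members in the 3 ZEB1 and 3 control libraries (numbered points), with mean and SD beside each group. COL1A1, COL4A1, COL4A2, COL7A1, P4HA2 and SPARC show no overlap between groups, whereas P4HB and PLOD3 overlap through ZEB1 replicate 3 and, for P4HB, replicate 2.

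Outside the cell, BMP1 removes the C-propeptide of fibrillar procollagens and PCOLCE speeds it up. BMP1 had 39.1, 21.9 and 37.5 CPM in the ZEB1 libraries against 30.96, 41.0 and 34.4 CPM in the controls, and the groups overlapped. PCOLCE had 0, 5 and 54 counts in the ZEB1 libraries against 46, 44 and 50 in the controls, or 0, 3.22 and 16.1 CPM in the ZEB1 libraries against 7.38, 8.02 and 8.16 CPM in the controls. Replicates 1 and 2 lay below every control and replicate 3 above every control. Its log2 fold change of -0.10 (SE 0.71) was -2.13 without ZEB1 replicate 3 and 1.03 for replicate 3 alone.

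The lysyl oxidases start cross-linking by oxidising lysines of collagen and elastin. LOXL2 had 84.4, 61.7 and 70.9 CPM in the ZEB1 libraries against 82.0, 80.8 and 89.8 CPM in the controls, a log2 fold change of -0.23 (SE 0.19). LOXL1, with 25.8, 40.5 and 35.4 CPM in the ZEB1 libraries against 35.3, 34.5 and 33.9 CPM in the controls, had -0.01 (SE 0.26). LOX had 7.997, 11.6 and 8.64 CPM in the ZEB1 libraries against 8.34, 12.03 and 4.90 CPM in the controls, and a log2 fold change of 0.16 (SE 0.52). LOXL3 had 0 counts in each ZEB1 library against 5, 8 and 8 in the controls and was not tested. Against a floor of 3 counts over the ZEB1 group, LOXL3 was at least 2.55-fold lower with the ZEB1 vector, a bound that takes the control counts as exact. With the counting error of both groups, the exact 95% upper limit of the ratio of ZEB1 to control counts per total was 0.527, if reads are independent. LOXL4 had 0 counts in all 6 libraries, which allows a level of up to 0.129 CPM.

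SPARC, a matricellular protein that binds collagen and aids its assembly, had 156, 187 and 169 CPM in the ZEB1 libraries against 213, 195 and 219 CPM in the controls. The groups did not overlap, and the log2 fold change was -0.29 (SE 0.15; edgeR adjusted p = 0.583.) It was -0.37 to -0.24 on leaving out single libraries.

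Other genes of the collagen pathway, in 6 lists, also gave 0 genes past the edgeR threshold. Of 18 further collagen chains 4 were tested, all with a fold change below 0. COL5A3 had -0.50 (SE 0.33) and the basement membrane chain COL4A5 -0.31 (SE 0.54). COL14A1, a fibril-associated chain, had 0, 0 and 1 counts in the ZEB1 libraries against 27, 18 and 23 in the controls, with an edgeR adjusted p of 0.265. Relative to library totals, its pooled ratio of ZEB1 to control counts was 0.0404, with an exact 95% counting interval of 0.00101 to 0.233. COL14A1 passed the filter only through the controls, so its direction followed from the filter and adds nothing to the count below 0. Apart from it, the tested chains below 0 were COL5A3, COL4A5 and COL4A6.

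The modification, folding and export lists did not share the low median of the chains. Of 13 tested folding and modification genes, 5 had a fold change below 0 and 8 above (median 0.12). The disulfide isomerases PDIA4 and PDIA3 had -0.02 (SE 0.16) and -0.21 (SE 0.17). FKBP7, an endoplasmic reticulum isomerase, had 17.8, 14.8 and 11.02 CPM in the ZEB1 libraries against 8.66, 2.55 and 6.20 CPM in the controls and a log2 fold change of 1.29 (SE 0.53). Of 23 genes of procollagen export, 10 lay below 0 and 13 above (median 0.06). The cargo receptor LMAN1 had 0.15 (SE 0.17), and KDELR1 had -0.09 (SE 0.17). The coat genes SEC23B and SEC31A had -0.75 (SE 0.26) and 0.52 (SE 0.24). KLHL12, the ubiquitin ligase adaptor that enlarges coat vesicles for procollagen, had 0.92 (SE 0.34). The smallest edgeR adjusted p in these lists was 0.442 for folding genes and 0.303 for export genes.

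Of 6 tested propeptidase and cross-linking genes, 1 lay below 0 and 5 above, with the copper chaperone ATOX1 at 0.27 (SE 0.17) and the protease FURIN at -0.15 (SE 0.26). ATP7A, which loads copper into lysyl oxidases, had 6, 21 and 16 counts in the ZEB1 libraries against 0, 3 and 19 in the controls. Its log2 fold change was 2.65 (SE 1.06). ATP7A reached the filter's cutoff of 2.31 CPM in every ZEB1 library but only in control replicate 3. Its place among those above 0 therefore depends on the group where it is high. Of 9 tested fibril-organizing genes 7 lay below 0 (median -0.20). Fibronectin, FN1, which templates collagen fibrils, had 602, 731 and 672 CPM in the ZEB1 libraries against 851, 777 and 895 CPM in the controls. Its log2 fold change was -0.33 (SE 0.15; edgeR adjusted p = 0.485.) POSTN and TGFBI, which bind collagen, had -0.78 (SE 0.36) and -0.13 (SE 0.14). Of 7 tested collagen receptors 5 lay below 0, with a median of -0.01. ITGA2, the alpha chain of a collagen-binding integrin, had 32.0, 50.8 and 65.2 CPM in the ZEB1 libraries against 79.7, 61.6 and 111 CPM in the controls and -0.73 (SE 0.26). Its partner ITGB1 had -0.001 (SE 0.15), and the endocytic receptor MRC2 had -0.33 (SE 0.20).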

How the data were processed

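RNA of 6 TC28a2 libraries was measured by DRUG-seq. The authors deposited raw counts per Entrez gene. HISAT2, Subread, featureCounts and GRCh38 are named in the submitters' processing notes, with no versions. For annotation release, strand setting and collapsing of molecular identifiers, the answer is not given in the sources used here, and uncollapsed reads are not independent. RefSeq (GRCh38.p14) symbols matched 27745 IDs and left 650 unmatched, and another annotated gene overlaps 20 of the 34 members.

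The test was that of edgeR 4.0.16, run under R 4.3.3 (quasi-likelihood test, robust, TMM, filterByExpr, group as the only term, two-sided), with Benjamini-Hochberg adjustment over all 11329 tested genes. A standard error is the fold change over the root of F. A prior count of 2 was used for mean log2 CPM. The median standard error over tested genes was 0.33. DESeq2 1.42.0 and limma 3.58.1 served as alternatives, and the steps were tested on simulated data. The members and lists were chosen with earlier results of these data known. Libraries were given individually for members with an unadjusted p under 0.05, those whose groups did not overlap and the most counted of each role, with others added after seeing values. From each pathway list the 2 most counted genes and up to 3 at that p are named. No 2 libraries were identical.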

Additional observations from a re-analysis of the deposited data

How the results depend on the processing

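The count of 0 members past an adjusted p of 0.05 was the same with RLE factors, upper-quartile factors or library size alone, under both other count filters, thinning, the replicate block, DESeq2, both forms of limma-voom and non-robust edgeR, and 0 to 1 on leaving out single libraries. In DESeq2 that count covers only the members that were given an adjusted p. ZEB1 passed the threshold under each of these alternatives. The count at an unadjusted p, 4, was 9 with library size alone (7.12% of all genes lower at this p), 7 with no filter (3.2%), 8 with quality weights (3.35%) and 2 to 10 on leaving out single libraries (1.74% to 9.41%). Members without overlap between groups, 10 (32.3%, against 15.1% of all genes), were 11 to 16 on leaving out single libraries (34.4% to 50%, against 20.5% to 37.2%). They were 22 (68.8%, against 55.4%) for ZEB1 replicate 3 alone against the controls, an alternative chosen after seeing the data. With the replicate block, 4 members had an unadjusted p under 0.05 (3.33% of all genes lower, 4.43% higher) and the median was -0.23 (all genes -0.05). Deviations of same-numbered libraries correlated at -0.03, -0.01 and 0.01, which showed no shared pattern. With so few libraries per group these values cannot settle whether samples were paired, and the labels state no pairing.

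Of 552 member values under alternatives, 510 kept their direction, and 17 members kept it under every alternative. The other 14 changed sign at least once, and the cause was not tested. COL12A1 was 0.016 with RLE factors, 0.01 with upper-quartile factors, 0.011 at a mean count of at least 20, 0.02 when thinned, 0.004 with the block and 0.018 in DESeq2. LOXL1 was 0.003 with RLE factors, 0.004 in DESeq2, 0.005 in limma-voom and 0.017 with quality weights. PLOD2, P3H1 and P3H4 were -0.113, -0.009 and -0.073 with library size alone, and PLOD2 was -0.008 with no filter and -0.096 when thinned. For replicate 3 alone, COL5A2 was 0.155, COL13A1 0.177, PLOD3 0.07, COLGALT1 0.103, CRTAP 0.022, BMP1 0.076, PCOLCE 1.026 and LOXL1 0.03. On leaving out single libraries the ranges were -0.349 to 0.227 for COL18A1, -0.136 to 0.139 for COL12A1, -0.426 to 0.069 for COL13A1, -0.034 to 0.069 for PLOD2, -0.012 to 0.234 for P3H1, -0.024 to 0.169 for P3H4, -0.25 to 0.104 for BMP1, -2.128 to 0.393 for PCOLCE, -0.116 to 0.502 for LOX and -0.144 to 0.122 for LOXL1.

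Depth limits the members with few counts. The shallowest ZEB1 library held fewer than 20 counts of COL1A2, COL3A1, COL8A1, COL13A1, COL16A1, P4HA2, P4HA3, PCOLCE, LOX, LOXL3 and LOXL4, which limits the precision of their values.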
